A study of Homo sapiens with 39 samples.

Results

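The late response of the small cell lung carcinoma line NCI-H209 (H209) to DKFZ-608 was read from 6 bead arrays at 24 h, out of 39 arrays in the series. They were chosen by their titles: 3 arrays of cells given 100 nM DKFZ-608 in 6.9 µM cyclodextrin, and 3 arrays of cells given cyclodextrin alone, the vehicle. DKFZ-608 is named in the submitters' title as an inhibitor of TRXR1 (thioredoxin reductase 1) that does not bind covalently. Both groups share the cyclodextrin carrier. Set beside these were H209 at 4 h (3 DKFZ-608 and 3 vehicle arrays) and the lung adenocarcinoma line NCI-H838 (H838) at 24 h (2 DKFZ-608 and 3 vehicle arrays), with the same dose and carrier. All H209 arrays come from 1 cell line, and the labels do not say whether replicates were separate cultures, so p-values measure the spread between arrays, which may be technical. Array medians lay between 92.6 and 94.2 intensity units over the whole series, and 18555 genes were tested. The neuroendocrine identity of H209 showed in the arrays: of 11 marker genes, 10 were tested, and all 10 were higher in every H209 array at 24 h than in every H838 array at 24 h. GRP, which encodes gastrin-releasing peptide, ran from 13.27 to 13.66 on the log2 intensity scale in H209 and from 6.24 to 6.42 in H838. The 6 fibroblast and 4 endothelial markers all stayed within 1 log2 unit of the filter value of 6.55 in the H209 arrays, as did 3 of 5 leukocyte markers. The other leukocyte markers were higher, CD68 at 9.70 to 10.17 and CD79A at 7.42 to 7.83. Of 7 markers listed for adenocarcinoma or mesenchymal-like cells, 4 were higher in every H838 array, but the keratin gene KRT19 went the other way, with 10.67 to 11.20 in H209, above every H838 array. No marker of these 4 classes was called between DKFZ-608 and vehicle.

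Thioredoxin reductase 1, the product of TXNRD1, uses NADPH to keep thioredoxin reduced, and thioredoxin in turn reduces peroxiredoxins, ribonucleotide reductase and oxidised protein thiols. Several transcription factors answer to damaged thiols: NRF2, freed from its inhibitor KEAP1, switches on antioxidant and NADPH-producing enzymes. HSF1 switches on chaperones when proteins misfold, and MTF1 switches on metallothioneins when free zinc rises. ATF4 is translated more when the initiation factor eIF2 is phosphorylated, and its targets include amino acid transporters and the regulators DDIT3 and TRIB3.

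The replicate 3 arrays of both groups went against their labels. MT1M, a metallothionein, had a log2 intensity of 9.79 and 10.26 in DKFZ-608 replicates 1 and 2 and of 6.33 in the array labelled DKFZ-608 replicate 3, against 6.36, 6.44 and 10.65 in the arrays labelled vehicle replicates 1, 2 and 3. HMOX1, the inducible haem oxygenase, had 10.84, 10.62 and 7.47 in the DKFZ-608 arrays, against 7.78, 7.76 and 11.01 in the vehicle arrays, in the same order. For both genes the array labelled vehicle replicate 3 was the highest of the 6 and the array labelled DKFZ-608 replicate 3 the lowest. This held widely over the genes that differed between the groups in replicates 1 and 2. Of 226 genes called higher there, 224 were lower in the array labelled DKFZ-608 replicate 3 than in the array labelled vehicle replicate 3, with a median difference of -0.71 log2 units against 0.67 in replicates 1 and 2. Of 82 genes called lower there, 79 were higher, with medians of 0.39 and -0.43. Over all tested genes, 46% were lower in the array labelled DKFZ-608 replicate 3.

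**Figure D1:**
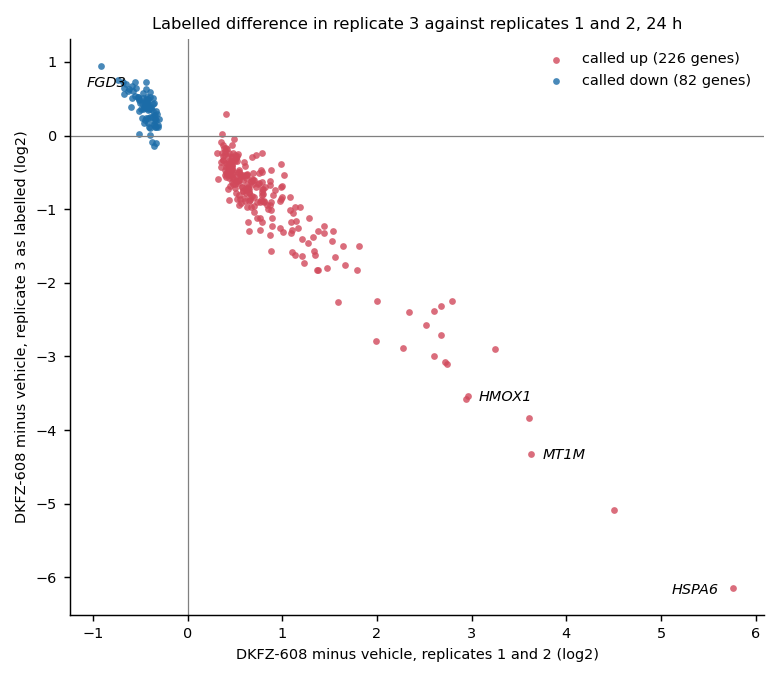
Log2 difference between the arrays labelled DKFZ-608 and vehicle in replicate 3 (vertical axis) against the mean difference in replicates 1 and 2 (horizontal axis), for the 226 genes called up and the 82 called down in replicates 1 and 2. Nearly all points lie in the upper left or the lower right, where the labelled direction in replicate 3 is the opposite of that in replicates 1 and 2.

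Whole profiles were compared next. Each array was expressed as its deviation from the mean of the H209 vehicle arrays at 0 h, which all deviations share, and correlated over the 18555 genes, which are not independent replicates. The array labelled vehicle replicate 3 correlated with DKFZ-608 replicates 1 and 2 at 0.55 and 0.63, and at -0.05 and 0.03 with vehicle replicates 1 and 2. Its counterpart labelled DKFZ-608 replicate 3 correlated with DKFZ-608 replicates 1 and 2 at -0.05 and 0.06, and with vehicle replicates 1 and 2 at 0.17 and 0.26. The replicate 3 arrays correlated with each other at 0.35, above the other values of the array labelled DKFZ-608 replicate 3. The time field of the array labelled vehicle replicate 3 says 8 h, its title 24 h, and the field is empty for vehicle replicate 2. At 8 h, 2 of the 4 H209 arrays also went against their labels: the second DKFZ-608 array correlated with the first vehicle array at 0.39, and the second vehicle array with the first DKFZ-608 array at 0.76. No array was relabelled. Counts of calls and list medians are given with all 6 arrays as labelled and again with replicates 1 and 2 only, and the values of single genes mostly with replicates 1 and 2 only.

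With all 6 arrays as labelled, limma called 0 of 18555 genes (0%) at an adjusted p under 0.05, and 439 genes had an unadjusted p under 0.05. In 1063 genes (5.73%) the 3 DKFZ-608 arrays lay all above (2.91%) or all below (2.82%) the 3 vehicle arrays. As labelled, HSPA6 differed by 1.79 ± 1.25 log2 units (limma's SE, n = 3 each), MT1M by 0.98 ± 1.06 and HMOX1 by 0.79 ± 0.85. SRXN1 differed by 1.11 ± 0.56 and TXNRD1 by 0.49 ± 0.29, and all of these had an adjusted p of 1. The SEs rest on a spread pooled over all 39 arrays of both lines, not on these 6 arrays alone. No member of the 29 gene lists described here was called as labelled. The list medians then ran from -0.07 for mitosis genes to 0.37 for metallothioneins and zinc genes. They were 0.0049 for the thioredoxin system, 0.05 for glutathione genes, 0.05 for immediate early genes, -0.0033 for p53 targets and 0.03 for apoptosis regulators. They were 0.06 for proteasome subunits, 0.04 for autophagy genes, 0.05 for iron genes, 0.05 for cytoskeletal genes, 0.03 for hypoxia genes and -0.03 for neuroendocrine genes.

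With replicates 1 and 2 only, limma called 308 genes (1.66% of those tested), of which 226 were higher with DKFZ-608 (1.22%) and 82 lower (0.442%). These shares over all genes are the background for the list counts below. The lists were chosen with earlier results of these data known, so counts above these shares are not independent evidence. The rises were larger than the falls: they had a median of 1.59-fold and a maximum of 54.1-fold, and 55 exceeded 2-fold, whereas the falls had a median of 1.35-fold, a maximum of 1.88-fold and none beyond 2-fold. The left-out arrays had been identified from gene expression, so the adjusted p-values do not count as independent evidence. Their spread was pooled over 33 arrays of both lines, not taken from the 4 arrays compared. With the spread of those 4 arrays alone limma called 554 genes, and with that of the H209 arrays alone 241. An exact permutation test of 2 against 2 arrays cannot give a p below 0.333. Leaving out DKFZ-608 replicate 1 gave 166 calls, DKFZ-608 replicate 2 gave 202 and vehicle replicate 1 gave 164, each below 308 by more than 1.5 times. It was 183 when the 4 H209 arrays at 8 h were kept, as labelled, in the estimate of the spread. The 20 largest rises were called in all 4 fits that left out 1 array. Of the 20 largest falls 5 were, those of FGD3, FLI1, NELL2, TRPM8 and NLGN4X. Intensities were not reduced to 0 at background, so folds of genes near the filter value, HSPA6 and MT1M among them, are understated. Unless stated otherwise, the values below are log2 differences with replicates 1 and 2 only, n = 2 each. Their SE and adjusted p are limma's and rest on the pooled spread.

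**Figure D2:**
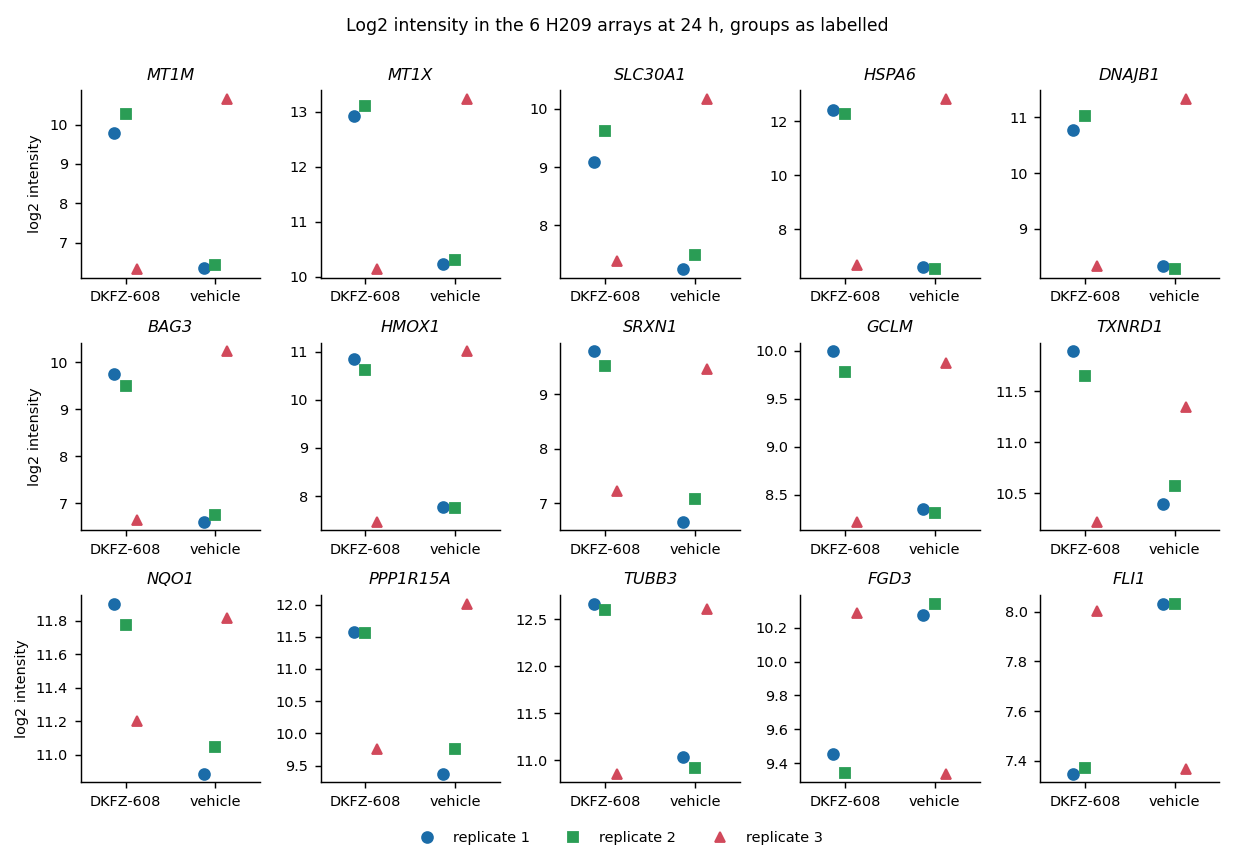
Log2 intensity of 15 genes in the 6 H209 arrays at 24 h, with DKFZ-608 on the left and vehicle on the right of each panel as labelled, and 1 symbol per replicate number. In each panel replicates 1 and 2 are separated by group, and the replicate 3 arrays lie on the opposite side.

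The metallothioneins, small cysteine-rich proteins that bind zinc and copper, were among the largest rises. Of 16 listed genes of metallothioneins and the zinc response, 15 were tested, and 9 rose (median of the 15 1.34, against -0.01 over all genes). They were MT1M, MT1H, MT1G, MT1X, MT2A, MT1E, MT1F, MT1B and the zinc exporter gene SLC30A1. MT1X had 12.92 and 13.11 in DKFZ-608 replicates 1 and 2, against 10.24 and 10.32 in vehicle replicates 1 and 2. Its arrays labelled replicate 3 had 10.14 for DKFZ-608 and 13.24 for vehicle. The 2 pairs did not overlap, which was so in this direction for 19.8% of all genes and in either direction for 43.4%, and the difference was 2.74 ± 0.17 (adjusted p = 3.3e-13). MT2A had 12.71 and 13.01 with DKFZ-608, against 10.14 and 10.15 with vehicle, a 6.56-fold rise. SLC30A1, which carries zinc out of the cell, had 9.09 and 9.62 with DKFZ-608, against 7.25 and 7.48 with vehicle (1.99 ± 0.15, adjusted p = 6.6e-11). MTF1, which encodes the zinc sensor itself, differed by 0.13, and the brain metallothionein MT3 by 0.19, and neither was called. The median of the list was 0.37 with all arrays as labelled, where no member was called. Metallothionein transcripts are close in sequence, so a probe of one may also read another, and the 2 probes of MT1E differed, at 2.67 for the brighter one used and 0.33 for the dimmer one.

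Promoters of this group are shown because 9 of its members rose, and those of the 9 with a promoter sequence held the same short motif. The core of the metal response element, the site that MTF1 is known to bind, was searched as TGCACNC or TGCGCNC on both strands of the 250 bases before each RefSeq gene start (GRCh38.p14). It was found in 24.8% of 35116 promoter windows, and in 35.7% of the 14077 tested genes with a window. Among genes with a window, 40.7% of the 177 called up and 53.3% of the 60 called down held it. Of the 9 genes that rose, 5 had a window (not MT1M, MT1G, MT1E or MT1F) and all 5 held at least 1 match. The stretches shown end at the base before the start, with matches in capitals. MT2A (chr16:56608424-56608583, plus strand) held 5 of them between 153 and 2 bases before the start, MT1X (chr16:56682310-56682469, plus strand) 4 between 150 and 47 bases, and MT1H (chr16:56669644-56669813, plus strand) 6 between 160 and 2 bases. A match is a description of the letters and not a measured binding site.
MT2A: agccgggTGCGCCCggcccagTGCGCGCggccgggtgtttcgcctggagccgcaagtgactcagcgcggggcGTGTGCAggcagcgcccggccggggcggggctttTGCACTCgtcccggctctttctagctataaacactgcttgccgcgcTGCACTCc
MT1X: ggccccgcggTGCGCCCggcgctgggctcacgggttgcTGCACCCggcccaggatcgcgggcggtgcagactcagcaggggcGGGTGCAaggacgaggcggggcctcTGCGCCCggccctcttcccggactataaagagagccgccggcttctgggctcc
MT1H: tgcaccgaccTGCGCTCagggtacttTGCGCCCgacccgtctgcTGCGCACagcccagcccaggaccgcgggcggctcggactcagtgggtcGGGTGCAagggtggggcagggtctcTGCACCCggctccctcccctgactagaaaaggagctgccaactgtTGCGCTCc

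Heat shock genes held the largest rise of all. HSPA6, a strictly inducible member of the HSP70 family, had 12.40 and 12.25 in DKFZ-608 replicates 1 and 2, against 6.61 and 6.52 in vehicle replicates 1 and 2. The arrays labelled replicate 3 had 6.67 for DKFZ-608 and 12.82 for vehicle. Both DKFZ-608 arrays were far above both vehicle arrays, which lay near the filter value, and the difference was 5.76 ± 0.14 (adjusted p = 1.7e-23). A second, dimmer HSPA6 probe gave 1.74, and HSPA7, a near-identical copy annotated as a pseudogene, rose by 4.50 ± 0.13, so the share of each in the signal is uncertain. Of 31 listed heat shock genes, 28 were tested and 12 rose (median 0.50). DNAJB1, the HSP40 partner of HSP70, had 10.78 and 11.02 with DKFZ-608, against 8.32 and 8.27 with vehicle (2.60 ± 0.16, adjusted p = 5.4e-13). BAG3, a co-chaperone that feeds HSP70 clients to autophagy, had 9.75 and 9.49 with DKFZ-608, against 6.61 and 6.75 with vehicle. The HSP70 genes HSPA1A and HSPA1B, which differ little in sequence, rose by 2.52 ± 0.17 and 2.28 ± 0.16, and SERPINH1, the collagen chaperone HSP47, by 1.47 ± 0.15. The constitutive HSP70 gene HSPA8 differed by 0.02 ± 0.12 (adjusted p = 0.98), with 12.62 and 12.58 with DKFZ-608 inside the vehicle range of 12.46 to 12.69. HSF1 itself differed by 0.07. As labelled, the median of the list was 0.13 with no member called. With the 8 h arrays kept as labelled, 7 members were called.

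The promoters of 4 of these genes are shown with the core of the heat shock element, GAANNTTC, in capitals. This core reads the same on both strands, lies in 5.78% of all promoter windows and in 6.26% of tested genes with a window, and was found in 8 of the 11 called heat shock genes that have one. HSPA6 (chr1:161524350-161524539, plus strand) held 2 matches, 180 to 173 and 69 to 62 bases before the start. HSPA1A (chr6:31815423-31815542, plus strand) held 1 at 106 to 99 bases, DNAJB1 (chr19:14518398-14518497, minus strand) 2 at 77 to 70 and 47 to 40 bases, and SERPINH1 (chr11:75562153-75562252, plus strand) 1 at 71 to 64 bases. DNAJB1 has 3 annotated starts and SERPINH1 2, and the stretch at 1 of them is shown. BAG3 had no match in its window.
HSPA6: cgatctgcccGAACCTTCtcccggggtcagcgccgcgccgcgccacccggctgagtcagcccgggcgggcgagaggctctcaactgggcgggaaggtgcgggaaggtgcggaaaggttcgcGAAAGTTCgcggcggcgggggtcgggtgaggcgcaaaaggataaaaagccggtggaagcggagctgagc
HSPA1A: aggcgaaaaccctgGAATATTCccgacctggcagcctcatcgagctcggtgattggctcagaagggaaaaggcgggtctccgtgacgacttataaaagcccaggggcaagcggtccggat
DNAJB1: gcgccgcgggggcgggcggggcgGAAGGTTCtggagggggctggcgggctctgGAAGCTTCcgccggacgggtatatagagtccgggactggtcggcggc
SERPINH1: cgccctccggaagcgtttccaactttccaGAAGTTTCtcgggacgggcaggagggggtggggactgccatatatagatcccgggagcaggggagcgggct

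Of the 29 lists, NRF2 targets had the most members called. Of 43 listed genes, 36 were tested, 27 rose and none fell (median 0.73). Without DKFZ-608 replicate 1, 16 members were called, and 17 with the 8 h arrays kept as labelled. As labelled, none was called and the median was 0.25. The largest rise in the list was that of HMOX1 (2.96 ± 0.17), followed by SRXN1 and AKR1B10. SRXN1, sulfiredoxin, which restores over-oxidised peroxiredoxins, had 9.79 and 9.52 with DKFZ-608, against 6.66 and 7.07 with vehicle (2.79 ± 0.23, adjusted p = 2.9e-10). AKR1B10, an aldo-keto reductase that detoxifies aldehydes, had 9.99 and 9.57 with DKFZ-608, against 7.12 and 7.09 with vehicle, though its probe may also read the similar AKR1B15. BLVRB, which reduces the biliverdin that haem oxygenase makes, stood at 9.07 and 9.02 with DKFZ-608, against 7.59 and 7.61 with vehicle (1.44 ± 0.20, adjusted p = 9.9e-06). BLVRB in the array labelled DKFZ-608 replicate 3 was 8.16, between the 2 groups. ME1, malic enzyme, a source of NADPH, rose by 1.33 ± 0.19 (adjusted p = 2.9e-05), with 9.91 and 9.84 with DKFZ-608, against 8.42 and 8.67 with vehicle. Picked after their values were seen, the export pump genes ABCC2 and ABCC3 and the glutathione transferase gene MGST1 lay near or below the filter value in every array, with differences of -0.04, 0.10 and -0.02, none of them called. Also picked afterwards were the pentose phosphate genes PGD, TKT and TALDO1, which supply NADPH and rose by 1.00, 0.69 and 0.59.

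TXNRD1, which encodes the enzyme that DKFZ-608 is described to inhibit, was itself higher. It had 11.89 and 11.65 in DKFZ-608 replicates 1 and 2, against 10.39 and 10.57 in vehicle replicates 1 and 2, and 10.22 and 11.34 in the arrays labelled DKFZ-608 and vehicle replicate 3. The difference was 1.29 ± 0.19 (adjusted p = 4.1e-05), and a second probe gave 0.98. Of 20 tested genes of the thioredoxin system and peroxiredoxins (23 listed), 5 rose and 1 fell, with a median of 0.04. The risers were SRXN1, TXNRD1, PRDX1, TXN and TXNL1, and 3 were called without DKFZ-608 replicate 1. TXNL1, a thioredoxin-like protein gene (0.48 ± 0.11), lost its call in each of the 4 fits that left out 1 array. PRDX1, the abundant cytosolic peroxiredoxin, had 12.41 and 12.34 with DKFZ-608, against 11.70 and 11.54 with vehicle (0.76 ± 0.10, adjusted p = 7.1e-06). TXN, thioredoxin itself, had 13.34 and 13.16 with DKFZ-608, against 12.72 and 12.75 with vehicle (0.52 ± 0.10), and its call was lost without DKFZ-608 replicate 1 (adjusted p = 0.12). PRDX4, the peroxiredoxin of the endoplasmic reticulum, was the member that fell (-0.31 ± 0.08, adjusted p = 0.038), and it was lost without either DKFZ-608 array or vehicle replicate 2. TXNRD2, the mitochondrial reductase, differed by -0.20 and TXNIP, the thioredoxin-binding arrestin protein, by -0.02, and neither was called.

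Glutathione synthesis genes rose at the entry steps. GCLM and GCLC encode the modifier and catalytic subunits of the first and limiting enzyme of the pathway. GCLM had 9.99 and 9.78 with DKFZ-608, against 8.36 and 8.31 with vehicle (1.55 ± 0.14, adjusted p = 1.6e-09), and GCLC 10.58 and 10.44 with DKFZ-608, against 8.87 and 9.08 with vehicle (1.54 ± 0.13). The cystine exchanger subunits SLC7A11 and SLC3A2 rose by 0.88 ± 0.10 and 0.65 ± 0.15, and glutathione reductase (GSR) by 0.78 ± 0.14. A second GSR probe gave 0.03 and a second GCLM probe 0.56, both dimmer than the probes used. The call of GSR was lost without vehicle replicate 1, and that of SLC3A2 without vehicle replicate 1 or either DKFZ-608 array. Of 23 glutathione genes 6 rose in all (median 0.10), the other being GSTM3, which lost its call without either DKFZ-608 array or vehicle replicate 2. GSS, which adds glycine in the last step, and the lipid peroxidase gene GPX4 each differed by 0.06 and were not called.

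For 3 of these genes the promoter held the core of the antioxidant response element, the site known for NRF2, searched as TGACNNNGC on both strands. It lies in 10.9% of all promoter windows and in 15.1% of tested genes with a window. It was found in 29.9% of the 177 called-up genes with a window and in 21.7% of the 60 called-down ones. Of the 27 called NRF2 targets, 21 had a window, and 7 of these held it. TXNRD1 (chr12:104215659-104215778, plus strand, 1 of 2 starts) held a match 99 to 91 bases before the start, GCLM (chr1:93909431-93909490, minus strand) 1 on the opposite strand at 34 to 26 bases, and ME1 (chr6:83431052-83431201, minus strand) 1 at 137 to 129 bases. SRXN1, GCLC and NQO1 had none of these letters in their windows.
TXNRD1: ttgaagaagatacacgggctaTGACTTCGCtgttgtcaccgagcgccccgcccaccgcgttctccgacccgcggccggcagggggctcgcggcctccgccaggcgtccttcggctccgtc
GCLM: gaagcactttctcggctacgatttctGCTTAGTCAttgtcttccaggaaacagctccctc
ME1: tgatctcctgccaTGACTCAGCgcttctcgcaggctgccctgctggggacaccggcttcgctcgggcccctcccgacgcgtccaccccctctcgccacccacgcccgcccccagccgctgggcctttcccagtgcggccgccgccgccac

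Among targets of the ATF4 integrated stress response, 33 of 37 listed genes were tested, 10 rose and 32 of 33 had a positive difference (median 0.30, and 0.12 as labelled). Over all 18555 genes, 8692 had a positive difference. PPP1R15A, the phosphatase subunit that reverses eIF2 phosphorylation, had 11.58 and 11.56 with DKFZ-608, against 9.37 and 9.76 with vehicle. GDF15, a secreted stress cytokine, had 10.92 and 10.98 with DKFZ-608, against 9.15 and 9.46 with vehicle (1.64 ± 0.13, adjusted p = 6.7e-11). ATF3, DDIT3 and TRIB3, transcription factors and a pseudokinase of this response, rose by 1.27 ± 0.15, 0.98 ± 0.12 and 0.84 ± 0.15. The call of TRIB3 was lost without vehicle replicate 1, and with the 8 h arrays kept as labelled 6 members were called. The other members called were SLC7A11, SLC3A2, DDIT4, NUPR1 and CEBPB. Among the 23 not called were ASNS, asparagine synthetase, at 0.37 and PHGDH, the first enzyme of serine synthesis, at 0.15. None of 24 genes of the unfolded protein response of the endoplasmic reticulum was called (median 0.06). Its largest positive differences were 0.44 ± 0.13 for the co-chaperone gene DNAJB9 (adjusted p = 0.11) and 0.39 ± 0.14 for the sensor gene ATF6.

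Of 30 immediate early genes 5 rose and 1 fell (median 0.18). IER5, a growth-response gene, had 8.78 and 8.72 with DKFZ-608, against 6.88 and 7.04 with vehicle (1.79 ± 0.12, adjusted p = 1.3e-12). FOS had 8.12 and 8.19 with DKFZ-608, against 6.58 and 6.57 with vehicle, and the phosphatase gene DUSP1 9.44 and 9.32 with DKFZ-608, against 8.13 and 8.35 with vehicle. MYC had 7.84 and 8.37 with DKFZ-608, against 6.61 and 6.92 with vehicle (1.34 ± 0.25, adjusted p = 0.0012), and its call was lost without vehicle replicate 1 or DKFZ-608 replicate 2. SGK1, a serum-regulated kinase, fell by 0.35 ± 0.09 and lost its call without either DKFZ-608 array or vehicle replicate 2. Of 25 p53 targets only GADD45B (1.01 ± 0.15) and GADD45A (0.70 ± 0.15), both also known as general stress genes, were called. The p53 target CDKN1A, an inhibitor of cyclin-dependent kinases, differed by 0.21 ± 0.21. Of 26 apoptosis regulators the BH3-only genes HRK (0.77 ± 0.14) and PMAIP1 (0.67 ± 0.15) rose. The calls of GADD45A, HRK and PMAIP1 were each lost in some fits that left out 1 array: GADD45A without either DKFZ-608 array or vehicle replicate 2, HRK without vehicle replicate 1 or DKFZ-608 replicate 2, and PMAIP1 without vehicle replicate 1, vehicle replicate 2 or DKFZ-608 replicate 1.

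Of 19 genes of ubiquitin and protein quality control 2 rose, ZFAND2A and UCHL1. ZFAND2A, a proteasome-associated gene known from arsenite exposure, had 11.86 and 11.80 with DKFZ-608, against 9.41 and 9.58 with vehicle (2.34 ± 0.15, adjusted p = 1.8e-12). Of 29 proteasome subunits tested, 27 had a positive difference (median 0.22), against 8692 of all 18555 genes. Of these subunits 3 rose: PSMD12 by 0.70 ± 0.11, the activator gene PSME4 by 0.54 ± 0.11 and PSMD14, the lid deubiquitinase, by 0.47 ± 0.09. Without DKFZ-608 replicate 1, 1 subunit was called. The other PSMD12 probes gave 0.01 and 0.11. Of 30 autophagy and lysosome genes 6 rose, with the ATG8-family genes GABARAPL1 (1.14 ± 0.11) and MAP1LC3B (0.61 ± 0.12) and the cargo receptor SQSTM1 (0.77 ± 0.11) first. Without DKFZ-608 replicate 1 only 2 of the 6 were called, and likewise 2 without vehicle replicate 1. The call of MAP1LC3B was lost in both of these fits, those of CTSD and TAX1BP1 in 3 of the 4 and that of ATG9A in all 4. Of 19 iron genes 4 rose: HMOX1, BLVRB, the haem-making ferrochelatase gene FECH and the ferritin light chain gene FTL (0.42 ± 0.10). FECH and FTL lost their calls in each of the 4 fits that left out 1 array.

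Cytoskeletal genes and SRF targets gave 5 rises among 28 tested (median 0.08). TUBB3, a tubulin of neurons, had 12.67 and 12.60 with DKFZ-608, against 11.03 and 10.92 with vehicle (1.66 ± 0.16, adjusted p = 6.9e-09). The smooth muscle actin gene ACTA2 had 8.57 and 8.35 with DKFZ-608, against 7.55 and 7.38 with vehicle (0.99 ± 0.14). ACTG2, TUBB2A and TUBA4A rose by 0.62, 0.42 and 0.41, and each lost its call without DKFZ-608 replicate 1 or vehicle replicate 2, TUBA4A also without vehicle replicate 1. In both of these fits 2 of the 5 were called. Of 29 hypoxia and glycolysis genes 3 rose, with the vasodilator peptide gene ADM (1.21 ± 0.12, adjusted p = 1e-08) first, then the angiogenic factor VEGFA and the glucose transporter gene SLC2A1. VEGFA lost its call without vehicle replicate 1 or DKFZ-608 replicate 1. ANGPT2, a ligand of the endothelial receptor TIE2, was the largest rise outside the lists except HSPA7, with 9.74 and 9.17 with DKFZ-608, against 6.79 and 6.92 with vehicle (2.61 ± 0.18, adjusted p = 3.8e-12).

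**Figure D3:**
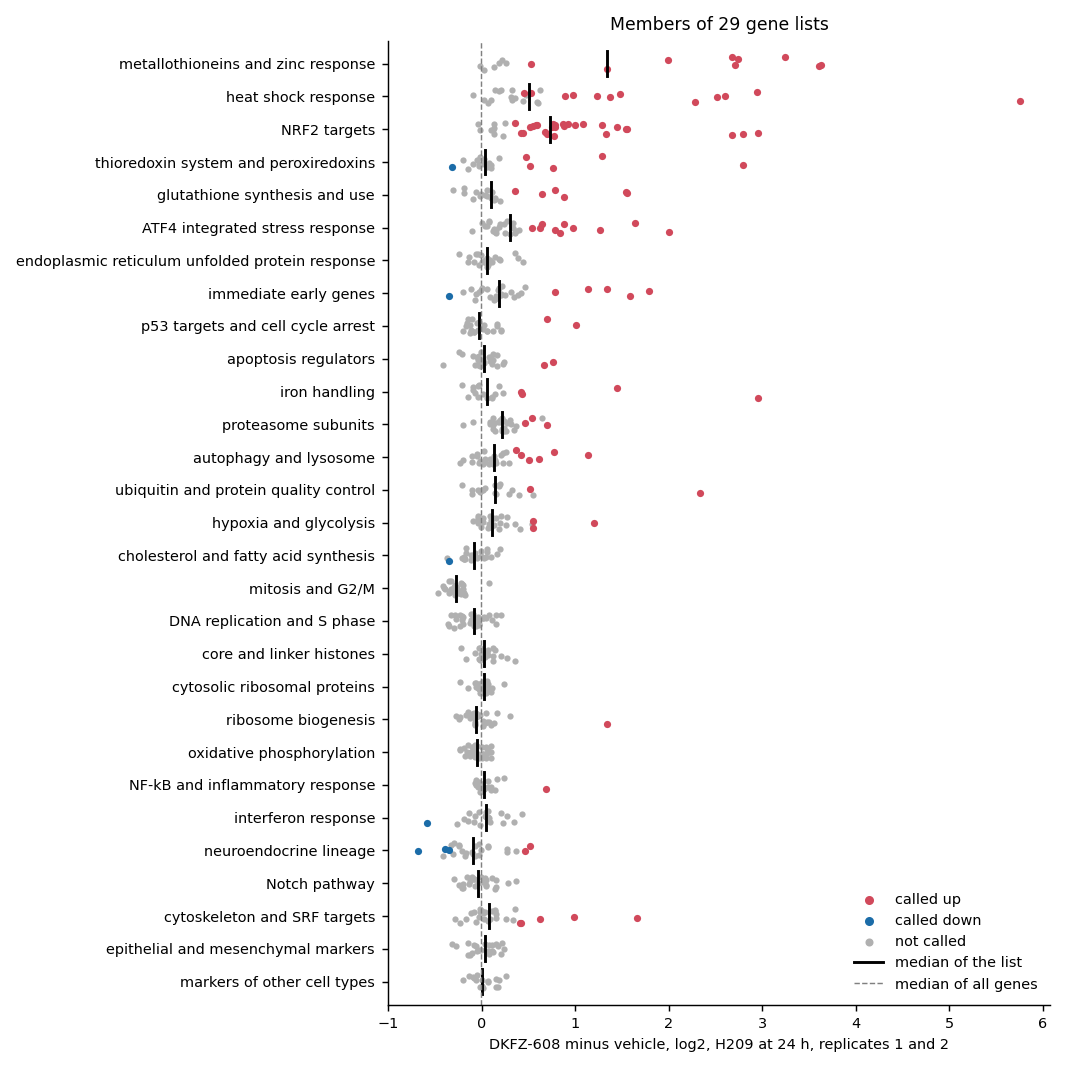
Log2 difference between DKFZ-608 and vehicle in H209 at 24 h (replicates 1 and 2) for the tested members of 29 gene lists, 1 point per gene, coloured by the call at an adjusted p under 0.05, with the list median as a black bar and the median of all genes as a dashed line. Metallothioneins and NRF2 targets have the highest medians, 1.34 and 0.73, and mitosis genes the lowest, -0.28.

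The 82 falls were smaller than the rises. FGD3, an activator of the GTPase CDC42, had 9.45 and 9.34 in DKFZ-608 replicates 1 and 2, against 10.27 and 10.34 in vehicle replicates 1 and 2, and 10.29 and 9.34 in the arrays labelled DKFZ-608 and vehicle replicate 3 (-0.91 ± 0.12, adjusted p = 4e-06). FLI1, an ETS transcription factor, had 7.35 and 7.37 with DKFZ-608, against 8.03 and 8.03 with vehicle. NELL2, a secreted neural glycoprotein, had 7.81 and 7.77 with DKFZ-608, against 8.45 and 8.47 with vehicle (-0.67 ± 0.09, adjusted p = 5.1e-06). With replicates 1 and 2 the groups did not overlap in these 3 genes, which was so in this direction for 23.7% of all genes, and with all 6 arrays as labelled they overlapped. The cold-sensing channel gene TRPM8 and the synaptic adhesion gene NLGN4X fell by 0.62 ± 0.09 and 0.55 ± 0.08. Calls among the other 15 of the 20 largest falls each failed in at least 1 fit that left out an array. These included the Wnt antagonist DKK1, the interferon-induced IFIT2 and NUDT1, whose second probe gave -0.04. Of 26 neuroendocrine lineage genes, 19 had a negative difference (median -0.10), as did 9863 of all 18555 genes. In this list 3 fell and 2 rose. The falls were in transcription factors, SOX21 (-0.68 ± 0.12), ISL1 (-0.40 ± 0.08) and FOXA2 (-0.35 ± 0.09), and the rises in UCHL1, a neuronal deubiquitinase, and CALCA, the calcitonin gene (0.46 ± 0.12). SOX21 lost its call without DKFZ-608 replicate 1 or vehicle replicate 2, ISL1 without DKFZ-608 replicate 2, and UCHL1, CALCA and FOXA2 in 3 or 4 of those 4 fits. Granule genes were not called, with CHGA at 0.37 and CHGB at -0.17.

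No mitosis gene was called. Of 32 tested, 31 had a negative difference (median -0.28, against -0.01 over all genes), as did 9863 of all 18555 genes. The largest in the list was -0.46 ± 0.19 for the cyclin gene CCNB2 (adjusted p = 0.36). The DNA replication list had a median of -0.08 with 0 of 35 called, and its smallest adjusted p was 0.055, for the helicase subunit gene MCM7 (-0.33 ± 0.09). As labelled, the mitosis median was -0.07. No gene was called among 21 histones, 31 cytosolic ribosomal proteins, 33 oxidative phosphorylation genes, 25 Notch pathway genes, 23 epithelial and mesenchymal markers or 17 markers of other cell types. Single members were called among cholesterol and fatty acid synthesis genes (MVD, mevalonate decarboxylase, -0.35 ± 0.09), NF-kB genes (CXCL8, 0.68 ± 0.17) and ribosome biogenesis genes (MYC). Likewise, 1 of 21 interferon response genes was called, IFIT2 (-0.59 ± 0.14). In that list 12 genes had a positive and 9 a negative difference (median 0.04). MVD lost its call without vehicle replicate 1 or DKFZ-608 replicate 2, and CXCL8, whose second probe gave 0.03, in each fit that left out 1 array.

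The response at 24 h was then set against that at 4 h, which uses other vehicle arrays. At 4 h the same fit called 226 genes higher with DKFZ-608 (1.22%) and 122 lower (0.658%). The lists of risers shared 84 genes, 37.2% of each, and the lists of fallers 13, which is 15.9% of the 24 h falls and 10.7% of the 4 h falls. Testing the difference between the effects gave 73 genes (0.393%), 47 with a higher (0.253%) and 26 with a lower effect at 24 h (0.14%). Leaving out replicate 1 at 24 h lowered the count, to 47 for the DKFZ-608 array and 41 for the vehicle array. With all arrays as labelled it was 6, none with a higher effect at 24 h. With the replicate number as a block it was 156. Same-numbered arrays deviated together at 4 h (correlations of 0.48, 0.14 and 0.55). At 24 h they did not, but with replicate 3 against its labels this cannot show whether the numbers pair arrays. Of the 47, 45 were called up at 24 h, and at 4 h 10 had been called up and 3 called down. Of the 26, 19 had been called up at 4 h. At 24 h, 15 of these 26 were not called, 4 were called up and 7 were called down.

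Among genes with a higher effect at 24 h, the NRF2 targets AKR1B10 and SRXN1 had the largest differences. AKR1B10 stood at 2.68 at 24 h and 0.26 at 4 h (difference 2.42 ± 0.25, adjusted p = 7.9e-07), and SRXN1 at 2.79 and 0.55 (2.24 ± 0.30, adjusted p = 2.8e-05). Within the NRF2 list BLVRB, ME1, NQO1 and GSR followed with differences of 1.41, 1.13, 0.68 and 0.75. Outside that list ANGPT2, TREML3P, DEFB1 and HSPA7 had larger differences than BLVRB, of 1.89, 1.64, 1.55 and 1.48. Of 36 NRF2 targets, 6 had a higher and none a lower effect at 24 h, and the list had 27 members called up at 24 h and 9 at 4 h. HMOX1 did not share this: it was at 2.96 at 24 h and 3.76 at 4 h, a difference of -0.80 ± 0.22 that was not called (adjusted p = 0.18). Heat shock genes split. HSPA6, HSPA7 and BAG3 had higher effects at 24 h (differences of 1.31, 1.48 and 0.90), HSPA8 a lower one, 0.02 at 24 h and 0.71 at 4 h, and DNAJB1 differed by 0.06 ± 0.21. With all arrays as labelled the direction of HSPA6, HSPA7 and BAG3 turned, to -2.66, -1.72 and -1.27. MT1M was at 3.63 at 24 h and 5.03 at 4 h (-1.40 ± 0.26, adjusted p = 0.004), and the differences of the other metallothioneins, from -0.84 for MT2A to 0.24 for MT1G, were not called. Of genes called up at 4 h and not at 24 h, 3 are given. EGR1, an immediate early transcription factor, was at 0.22 at 24 h and 1.62 at 4 h, HEY1, a Notch target, at 0.28 and 1.10, and SLC38A2, a neutral amino acid transporter, at 0.25 and 1.14. ATF3 was called at both times, at 1.27 at 24 h and 2.33 at 4 h. In this comparison the call of MT1M was lost without DKFZ-608 24 h replicate 1 (adjusted p = 0.102) and that of ATF3 without vehicle 24 h replicate 1 (adjusted p = 0.066) or DKFZ-608 24 h replicate 2. Those of BAG3, ME1, NQO1, GSR, HSPA8, HEY1 and SLC38A2 were each lost without DKFZ-608 24 h replicate 1 and without 2 or more further arrays, whereas HSPA6, HSPA7, AKR1B10, SRXN1, BLVRB and EGR1 were called in all 10 such fits.

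**Figure D4:**
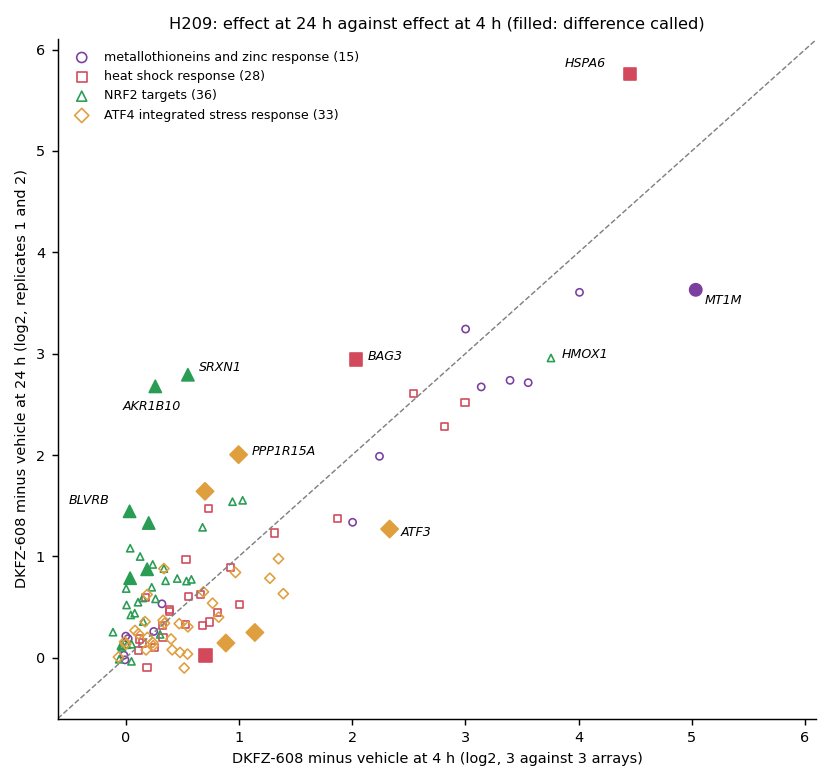
DKFZ-608 minus vehicle at 24 h (replicates 1 and 2, vertical axis) against 4 h (3 arrays each, horizontal axis) in H209, in log2 units, for 4 gene lists. Filled symbols mark genes whose effects differ at an adjusted p under 0.05, and the dashed line marks equal effects; SRXN1, AKR1B10 and BLVRB lie well above it and MT1M and ATF3 below it.

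H838 at 24 h served as the other line. There the fit called 2 genes (0.0108%), MT1H (0.84) and MT1F (1.04), both higher with DKFZ-608 (n = 2 against 3). The title of DKFZ-608 replicate 1 of H838 names no compound, and its group came from its treatment field. Testing H209 minus H838 directly gave 126 genes (0.679%), 114 with a higher (0.614%) and 12 with a lower effect in H209 (0.0647%), and 85 without DKFZ-608 replicate 1 of H209. With all arrays as labelled it gave 0 genes, with 467 at an unadjusted p under 0.05. Of the 114, 113 were called up in H209, and of the 12, 11 were called down. HSPA6 was at 5.76 in H209 and 0.0031 in H838 (difference 5.75 ± 0.19, adjusted p = 1.2e-19), with mean levels in H838 of 6.54 with DKFZ-608 and 6.53 with vehicle. MT1M was at 3.63 in H209 and 0.64 in H838 (2.99 ± 0.27), and MT1X at 2.74 and -0.15 (2.89 ± 0.23). Of 36 NRF2 targets, 18 had a higher effect in H209, and none was called in H838 (median -0.04). For SRXN1 and GCLM, levels also differed between the lines without the compound, and the other targets are not described in this respect. SRXN1 had 6.66 and 7.07 in the H209 vehicle arrays, against a mean of 10.21 in the H838 vehicle arrays. GCLM had 8.36 and 8.31 in H209, against 10.73 in H838. The part of these levels in the result was not tested. The effects of heat shock genes were higher in H209 for 9 of 28 and of metallothionein and zinc genes for 7 of 15. The effect on FGD3 was lower in H209 (difference -1.05 ± 0.16, adjusted p = 0.00011), and its mean level in H838, 6.83 with DKFZ-608 and 6.69 with vehicle, was near the filter value.

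**Figure D5:**
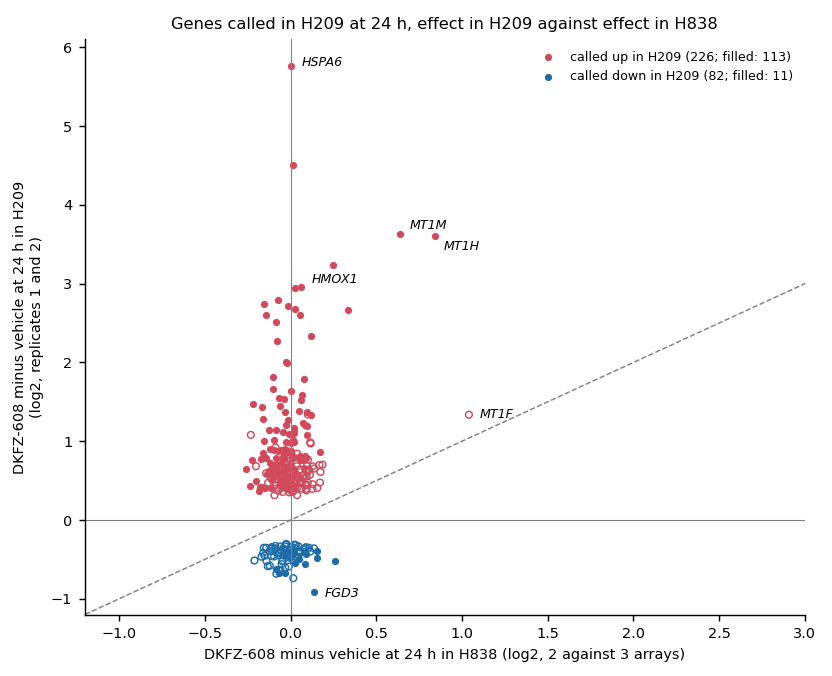
DKFZ-608 minus vehicle at 24 h in H209 (replicates 1 and 2, vertical axis) against H838 (2 against 3 arrays, horizontal axis), in log2 units, for the 226 genes called up and the 82 called down in H209. Filled points are the 113 and 11 genes whose effects differ between the lines, and nearly all genes lie close to 0 in H838, apart from MT1M, MT1H and MT1F.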

How the data were processed

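Expression was measured on Illumina bead arrays, 1 array per sample. The authors deposited normalized linear intensity values for 48107 probes in 39 arrays, per the deposited value table; the normalization method is not given in the sources used here, and no detection p-values were used. The number of arrays limits the precision. Intensities were floored at their percentile 1 (75.8) and put on the log2 scale. Probes above the overall median (log2 6.55) in at least 2 arrays were kept, and each gene was represented by its brightest probe with 1 symbol, which left 18555 genes. Groups came from titles and treatment fields.

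Group means were fitted with limma 3.58.1 in R 4.3.3, with Benjamini-Hochberg adjustment over all genes at 0.05. One fit held all 39 arrays in 14 groups as labelled. The other, used for replicates 1 and 2, held 33 arrays in 12 groups, without both replicate 3 arrays of H209 at 24 h and without the 4 H209 arrays at 8 h. The fitting code was tested on simulated data.

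Deviations of same-numbered arrays from their group means correlated at -0.04, -0.18 and -0.24 at 24 h as labelled and at 0.08 in replicates 1 and 2. Replicate numbers were not taken to pair arrays there. These values cannot show whether they do: replicate 3 goes against its labels, and 2 arrays per group give only 1 value. At 4 h the correlations were 0.48, 0.14 and 0.55, which meets the limit of 0.1 for paired numbers. The main fits held no replicate term, so the 4 h results leave this pairing out. With the replicate number as a block, the 73 genes that differed between 24 h and 4 h became 156.

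By a rule, the genes named were TXNRD1, TXN, HMOX1, NQO1, SRXN1, SLC7A11, GCLM, MT1M and HSPA6, the 20 largest rises and falls with replicates 1 and 2 on separate sides, up to 6 called members of each list in each direction (with up to 3 further members where fewer than 3 were called), the 8 largest of each difference in each direction and up to 4 called members of each list there. MT1F, MT1B, MT3, MTF1, HSF1, AKR1B15, ABCC2, ABCC3, MGST1, PGD, TKT, TALDO1, TXNRD2, TXNIP, GSS, GPX4, ASNS, PHGDH, DDIT4, NUPR1, CEBPB, CHGA, CHGB, GRP, CD68, CD79A and KRT19 fall outside it and were named after their values were seen. The members and lists were chosen with earlier results of these data known. Alternatives were quantile normalization, other filters, no floor, the mean of a gene's probes, a trended robust prior, replicate blocks, other sources of the spread, and leaving out each array. Promoter sequences are RefSeq's, build GRCh38.p14.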

Additional observations from a re-analysis of the deposited data

Results flagged for a closer look

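The 24 h effect differed from the 4 h effect in H209 for 73 genes by limma's test of the difference, with replicates 1 and 2 only at 24 h. Among the genes named, the effect was higher at 24 h for AKR1B10 by 2.42 log2 units, SRXN1 by 2.24, ANGPT2 by 1.89, TREML3P by 1.64, DEFB1 by 1.55, HSPA7 by 1.48, BLVRB by 1.41, HSPA6 by 1.31, ZFAND2A by 1.18, ACTA2 by 1.16, ME1 by 1.13, IER5 by 1.13, PPP1R15A by 1.01, ADM by 0.95, GDF15 by 0.94, BAG3 by 0.90, GSR by 0.75, ACTG2 by 0.69, NQO1 by 0.68, TUBB2A by 0.62 and LFNG by 0.61. DEFB1 encodes an epithelial defensin and LFNG a glycosyltransferase that modifies Notch receptors. A higher effect at 24 h was not always a rise. LFNG was at -0.15 at 24 h, and 3 of the 47 genes with a higher effect had been called down at 4 h. The effect was lower at 24 h, with differences of -1.40 for MT1M, -1.40 for EGR1, -1.06 for ATF3, -0.96 for FGD3, -0.89 for SLC38A2, -0.82 for HEY1, -0.82 for MXD1, -0.82 for CCDC117, -0.74 for CHAC1, -0.73 for RNF19A, -0.69 for NELL2, -0.67 for ANKRD35, -0.68 for HSPA8 and -0.63 for DUSP1. The RNF19A probe used gave -0.51 at 24 h, whereas a second probe, nearly as bright, gave 0.07 and a dimmer one 0.14. CHAC1 encodes an enzyme that breaks down glutathione. FGD3, NELL2, ANKRD35 and RNF19A were among the 7 genes with a lower effect that were called down at 24 h.

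The 24 h effect differed between H209 and H838 for 126 genes by the same kind of test. The 8 largest in each direction are given. It was higher in H209 for HSPA6 by 5.75 log2 units, HSPA7 by 4.49, MT1G by 3.00, MT1M by 2.99, BAG3 by 2.92, HMOX1 by 2.90, MT1X by 2.89 and SRXN1 by 2.87. It was lower in H209 for FGD3 (-1.05), BCL11B (-0.77), RAB40B (-0.64), ST8SIA5 (-0.64), FLI1 (-0.64), NELL2 (-0.60), NLGN4X (-0.57) and ISL1 (-0.55).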

How the results depend on the processing

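With replicates 1 and 2 only, the 308 calls became 514 with a replicate block, 554 with the spread taken from the 4 arrays alone, 183 with the H209 arrays at 8 h kept as labelled, and 164 to 217 when 1 array was left out. The other settings for this comparison gave 241 to 315 calls. Over all these settings none of the 96 named genes called changed direction. Of those not called, LFNG (-0.15) took 0.048 with the mean of its probes, and without vehicle replicate 1 HSPA8 (0.023) took -0.092 and CCDC117 (-0.065) took 0.026. As labelled, limma called 0 genes in every setting, the replicate block included, where 551 genes had an unadjusted p under 0.05. The 73 genes that differed between 24 h and 4 h became 156 with a replicate block, 6 with all arrays as labelled and 41 to 73 when 1 array was left out. With all arrays as labelled that difference turned for HSPA6 (-2.66), HSPA7 (-1.72), BAG3 (-1.27), PPP1R15A (-0.41), ZFAND2A (-0.40), GDF15 (-0.11) and IER5 (-0.073), the setting that adds the replicate 3 and 8 h arrays. The 126 genes that differed between H209 and H838 became 251 with a replicate block, 0 with all arrays as labelled and 85 to 119 when 1 array was left out. Same-numbered arrays correlated at 0.08 in replicates 1 and 2 at 24 h, where 2 arrays per group give only 1 value, and at 0.14 to 0.55 at 4 h. With the 8 h arrays kept, 31 of the 96 named calls were lost, those of MT1M, HMOX1, GCLM and ATF3 among them (adjusted p = 0.094, 0.083, 0.078 and 0.070). Of 162 further probes of called genes 129 had the sign of the probe used and 50 gave at least 50% of its log2 difference.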

Other observations

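Among the 177 genes called up that had a promoter window, the heat shock element core was found in 9.6%, against 6.26% of all tested genes with a window, and the metal response element core in 40.7%, against 35.7%. Among the 60 genes called down with a window the shares were 3.33% and 53.3%. The shares describe letters in windows of 250 bases and were not tested.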
